A study of Macaca mulatta with 16 samples.

Results

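The 9 genes described here encode regulators that set the character of the chambers of the heart: IRX3, IRX4, IRX5, HEY2, HAND1, NR2F1, NR2F2, TBX3 and LBH. They were taken from a table of 19425 genes by their gene symbol. This found 8 of them, and LBH was found by its Ensembl identifier, ENSMMUG00000006617, through a table that pairs identifiers with symbols.

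The atria, ventricles and conduction system of the heart come from common progenitors, and transcription factors that activate or repress chamber-specific genes keep them apart. In the developing hearts of mice, HEY2, IRX4 and HAND1 are known from ventricular muscle, NR2F2 from the atria and TBX3 from the conduction system. Some of these genes are also used outside muscle, among them NR2F2 in veins and lymphatic vessels.

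The RNA came from formalin-fixed, paraffin-embedded (FFPE) heart tissue of rhesus macaques (Macaca mulatta) of Indian origin, from a model of right ventricular pressure overload. The animals were perfused with fixative, and the blocks were stored at room temperature for more than a year. RNA of each of 8 animals was extracted by Method QE, a Qiagen AllPrep DNA/RNA FFPE kit with added ethanol washes after xylene, and by Method BL, a CELLDATA RNAstorm kit with a longer lysis by protease, which gave 8 libraries per method and 16 in all. The libraries are named here by method and animal, and neither the state, age and sex of each animal nor the chamber sampled was given in the labels.

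The comparison of both methods asks whether the extraction alters the level of a gene in the same animal, and the comparison of animals asks whether a gene differs between specimens by more than the extractions of 1 specimen differ. Summed estimated counts were 15 to 25.81 M in Method BL and 19.29 to 25.69 M in Method QE. The regulatory light chain was mainly that of ventricular muscle. MYL2, the ventricular form, lay between 896 and 3884 CPM (the count scaled to the size of the library) in the 16 libraries, and MYL7, its atrial counterpart, between 1.32 and 27.9 CPM. MYH7 of the ventricular list was at 8659 CPM or more. Of the atrial list, KCNJ3 lay between 24.8 and 57.3 CPM and NPPA between 0 and 44.5 CPM. The Method BL library of rh2957 stood apart. It had the lowest summed CPM of the cardiomyocyte list, 54792, where the other 7 libraries of that method had at least 88163, and the highest of the leukocyte list, 272 against at most 120. The Method BL library of r16116 had the highest summed CPM of the fibroblast list, 3858 against at most 1323 in the others of that method. Results that rest on these libraries are given with and without them.

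IRX3, IRX4 and IRX5 are Iroquois homeobox genes, whose products bind DNA through a homeodomain that is nearly the same throughout the family. Their sequences are shown because a read from the part they have in common could belong to more than 1 of them. In RefSeq transcripts of Mmul_10, the 120 coding bases most alike in the 3 genes were identical at 116 positions. Capitals mark the 4 positions that are not the same in all 3.
IRX3: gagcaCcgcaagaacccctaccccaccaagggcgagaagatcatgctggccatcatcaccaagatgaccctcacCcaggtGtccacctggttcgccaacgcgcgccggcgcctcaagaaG
IRX4: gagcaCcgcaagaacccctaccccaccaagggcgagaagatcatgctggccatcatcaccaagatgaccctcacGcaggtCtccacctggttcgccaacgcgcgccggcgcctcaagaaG
IRX5: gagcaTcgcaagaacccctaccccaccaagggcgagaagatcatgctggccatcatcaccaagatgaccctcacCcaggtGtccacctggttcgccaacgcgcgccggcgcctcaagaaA

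In IRX3 the stretch lies at chr20:41402578-41402697 on the minus strand, in exon 2 of 4. In IRX4 it lies at chr6:1844725-1844844 on the minus strand, in exon 5 of 6, and in IRX5 at chr20:42051345-42051464 on the plus strand, in exon 2 of 3. The longest run of bases that is identical in a pair was 113 for IRX3 and IRX5, 74 for IRX3 and IRX4, and 68 for IRX4 and IRX5. IRX1, a further Iroquois gene, shared 129 bases with IRX4 and 107 with IRX3, and its level was at most 1.43 CPM in any library. The authors estimated counts by an algorithm that divides a read among the genes it could come from. The estimated count differed from a whole number by more than 0.01 in 13 of 16 libraries for IRX3, in 9 for IRX4 and in 11 for IRX5. Which genes shared reads was not tested, and the levels of these 3 genes are reported as uncertain.

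NR2F1 and NR2F2, which encode the nuclear receptors COUP-TFI and COUP-TFII, are the other close pair. Their longest common run was much shorter, 35 coding bases in exon 3 of 3 of each gene, at chr6:90453501-90453535 for NR2F1 and chr7:75434045-75434079 for NR2F2, both on the plus strand. It is shown for contrast with the Iroquois stretch.
NR2F1 and NR2F2: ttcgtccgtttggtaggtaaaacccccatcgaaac

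All counts of NR2F1, NR2F2, HEY2, HAND1 and TBX3 were whole to that tolerance. For LBH, the count was not whole in any of the 16 libraries, and with which gene it shared reads was not tested. In RefSeq, a long noncoding RNA, LOC114674297, lies across IRX3 on the other strand, and LOC114679504 and LOC114679506 overlap the deposited span of NR2F2 on the same strand. Whether the counting used the strand is not given in the sources used here.

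All 9 genes were measured in every library, and all passed the filter on low counts. Divided by the length of the longest RefSeq transcript, LBH had by far the highest level, 36.8 ± 11.4 CPM per kb (SD, n = 16 libraries), and NR2F1 the lowest, 0.971 ± 0.900. LBH encodes a small cofactor of transcription named for limb bud and heart. Between them, in falling order, were IRX3 with 8.71, HEY2 with 6.51, NR2F2 with 5.38, TBX3 with 3.19, IRX5 with 2.35, IRX4 with 1.90 and HAND1 with 1.76 CPM per kb. Averaged over both methods, LBH was above IRX3, and NR2F2 above TBX3, in 8 of 8 animals. Of the other neighbours in that order, HEY2 was above NR2F2 in 5 of 8 animals and IRX4 above HAND1 in 5 of 8. The remaining pairs kept the order in 6 or 7 of 8 animals. The order was not tested, and no difference is claimed for pairs whose order varied between animals.

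**Figure D1:**
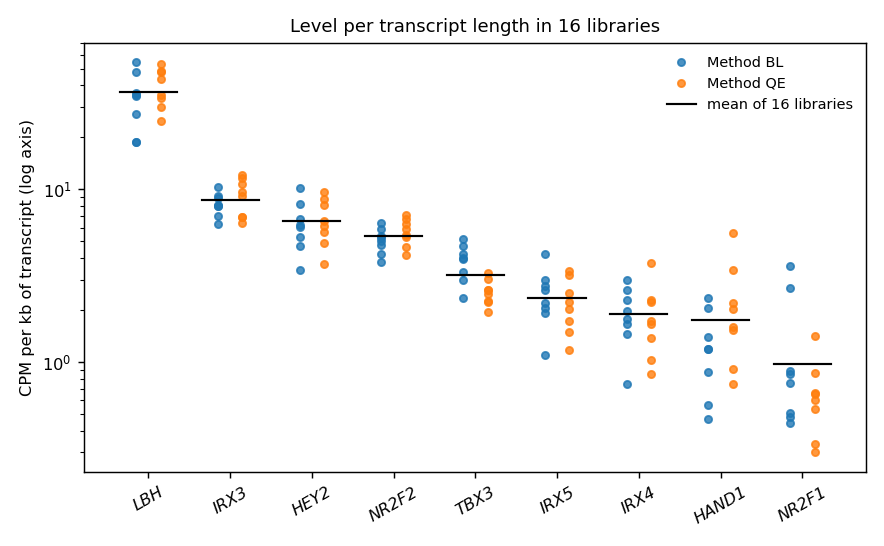
Level of the 9 genes in CPM per kb of transcript on a log axis, with 1 point per library (blue for Method BL, orange for Method QE) and a line at the mean of the 16 libraries. LBH lies apart at 36.8 CPM per kb, and the other means lie between 0.971 and 8.71.

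Of the 9 genes, 1 was called different between the methods at an adjusted p below 0.05, when edgeR compared the paired libraries by its quasi-likelihood test and p-values were adjusted by Benjamini-Hochberg over all genes. This was TBX3, which was lower in Method QE. Over the whole table, 303 of 14165 genes tested were called (2.14%), 182 of them lower in Method QE (1.28%) and 121 higher. The split depended on the fit: 108 higher of 363 with upper quartile scaling, 3 of 28 with an offset for GC content and length, 35 of 49 in the animals whose Method BL library ends in B, and 42 of 69 without r16116 and rh2957. A count of 1 in 9 is too small to set the genes apart from that background. An unadjusted p below 0.05 was found for 3 of the 9 and for 18.0% of all genes tested (2552). The median log2 fold change of Method QE over Method BL was 0.08 for the 9 genes and 0.00361 for all genes tested, and the median size without sign was 0.16 and 0.13.

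**Figure D2:**
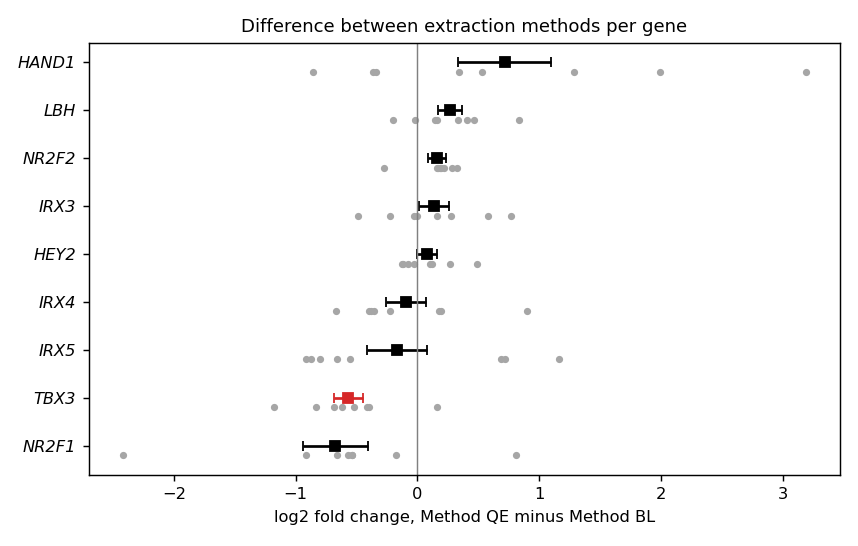
Log2 fold change, Method QE minus Method BL, of each gene. Squares with bars are edgeR's estimate and its standard error, red where the adjusted p is below 0.05, and grey points are the 8 animals. TBX3 at −0.57 is the red square, and the points of NR2F1 and HAND1 spread the most.

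TBX3 encodes a T-box repressor that keeps the sinus node and atrioventricular conduction tissue from becoming working muscle. In Method BL its level was lowest in rhbi30 at 12.1 CPM, had a median of 20.4 and was highest in rh2957 at 26.3. In Method QE it was lowest in r15089 at 9.97 CPM, had a median of 13.1 and was highest in r16010 at 16.8. The groups overlapped, but within animals the level fell from Method BL to Method QE in 7 of 8. The exception was rhbi30, which went from 12.1 to 13.5 CPM, while rh2957 changed most, from 26.3 to 11.6 CPM.

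The log2 fold change of TBX3 was −0.57 (SE 0.12), or 1.48-fold higher in Method BL, with an unadjusted p of 0.000322 and an adjusted p of 0.0301 in edgeR. It rested on between 182 and 643 estimated counts per library. The call was near the threshold. It was lost in edgeR without r15089 (adjusted p = 0.0829), without r16010 (0.0760), without r16116 (0.0848) or without rh2740 (0.0683). In these fits the log2 fold change lay between −0.59 and −0.53, and edgeR's unadjusted p between 0.000751 and 0.0012. The genes called over the whole table then numbered 37 to 74. Without both r16116 and rh2957 the log2 fold change of TBX3 was −0.41 and edgeR's adjusted p was 0.121. In the fit without pairing, edgeR's adjusted p was 0.130 at a log2 fold change of −0.58.

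The names of the Method BL libraries end in B for 5 animals and in R for 3, and what the letters stand for is not given. In edgeR, TBX3 had a log2 fold change of −0.41 in the B animals (unadjusted p = 0.00889, adjusted 0.192). In the R animals it was −0.83 (unadjusted p = 0.00195, adjusted 0.785), in a fit that called 0 genes of the whole table. Neither subset gave the call alone, and the direction was the same in both.

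Genes of the outer covering of the heart were read beside TBX3. The summed level of the epicardial and mesothelial list (WT1, UPK3B, MSLN, ITLN1 and BNC1) ranged from 28.0 to 256 CPM in Method BL, with a median of 111, and from 1.09 to 378 CPM in Method QE, with a median of 36.2. High sums were mostly ITLN1, which ranged from 23.7 to 237 CPM in Method BL and from 0 to 349 CPM in Method QE. MSLN, the next highest, reached at most 12.1 CPM. The summed level thus mainly follows 1 gene. The sum was lower in Method QE in 6 of 8 animals, the exceptions being r12075 and rhbi30. Of these animals TBX3 was higher in Method QE only in rhbi30, and in r12075 it fell from 20.4 to 15.5 CPM. None of the 5 epicardial genes was called by edgeR, and 4 had an unadjusted p below 0.05 (18.0% of all genes tested did). Of these genes limma-voom called 0 and DESeq2 called 1 (MSLN). Their median log2 fold change was −1.36. The part of these cells in the difference of TBX3 was not tested. In tissue that is sequenced as a whole, fewer cells of a type and less RNA per cell cannot be told apart.

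**Figure D3:**
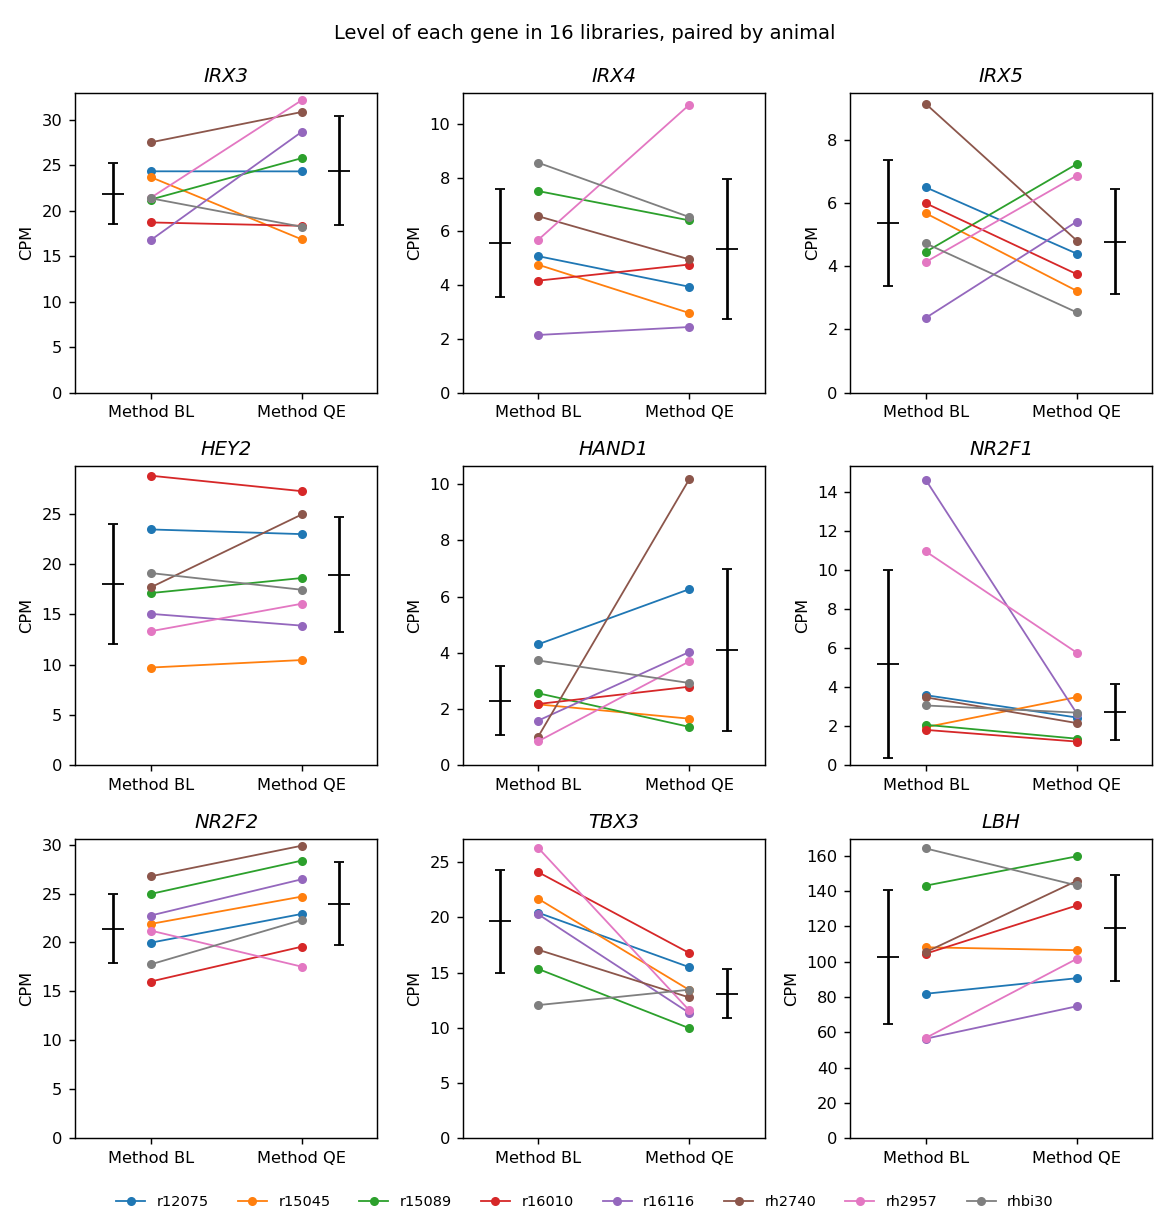
CPM of each gene in the 8 Method BL and 8 Method QE libraries, with a coloured line for each animal and the mean and SD of each method in black. Lines of TBX3 fall in 7 of 8 animals, and lines of NR2F2 rise in 7 of 8.

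NR2F1 had the most negative difference of the 9, which did not pass the test, and 2 libraries carried most of it. NR2F1 is known with NR2F2 from atrial muscle cells derived from stem cells. Its level was 14.6 CPM in the Method BL library of r16116 and 11.0 CPM in that of rh2957, while the other 6 Method BL libraries lay between 1.82 and 3.60 CPM. By Method QE the same animals had 2.65 and 5.77 CPM, and the Method QE libraries ranged from 1.22 to 5.77 CPM with a median of 2.55. NR2F1 was lower in Method QE in 7 of 8 animals, r15045 being the exception. The log2 fold change was −0.68 (SE 0.27) with an adjusted p of 0.202 in edgeR, and −0.28 with an adjusted p of 0.622 without r16116 and rh2957.

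The 2 libraries with high NR2F1 also stood apart in markers, as did some libraries without high NR2F1. In the Method BL library of r16116, COL1A1, a collagen of scar and connective tissue, was at 2642 CPM, where the next library of that method had 424. In the Method BL library of rh2957, LYVE1, a marker of lymphatic endothelium and tissue macrophages, was at 156 CPM against at most 36.1 in the others of that method. ADIPOQ, made by fat cells, was at 80.9 against at most 13.4 CPM, and HCN4, the pacemaker channel, at 28.3 against at most 6.49 CPM. The summed atrial list was highest in this library too, 110 against at most 87.5 CPM, as was MYL7, 27.9 against at most 15.1 CPM. NPPA, MYBPHL, KCNA5 and KCNJ3 were highest in other Method BL libraries. MYL2 was at its lowest of that method here, at 896 CPM. TBX3 was also highest in this library. The part of these cells in the level of NR2F1 was not tested.

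**Figure D4:**
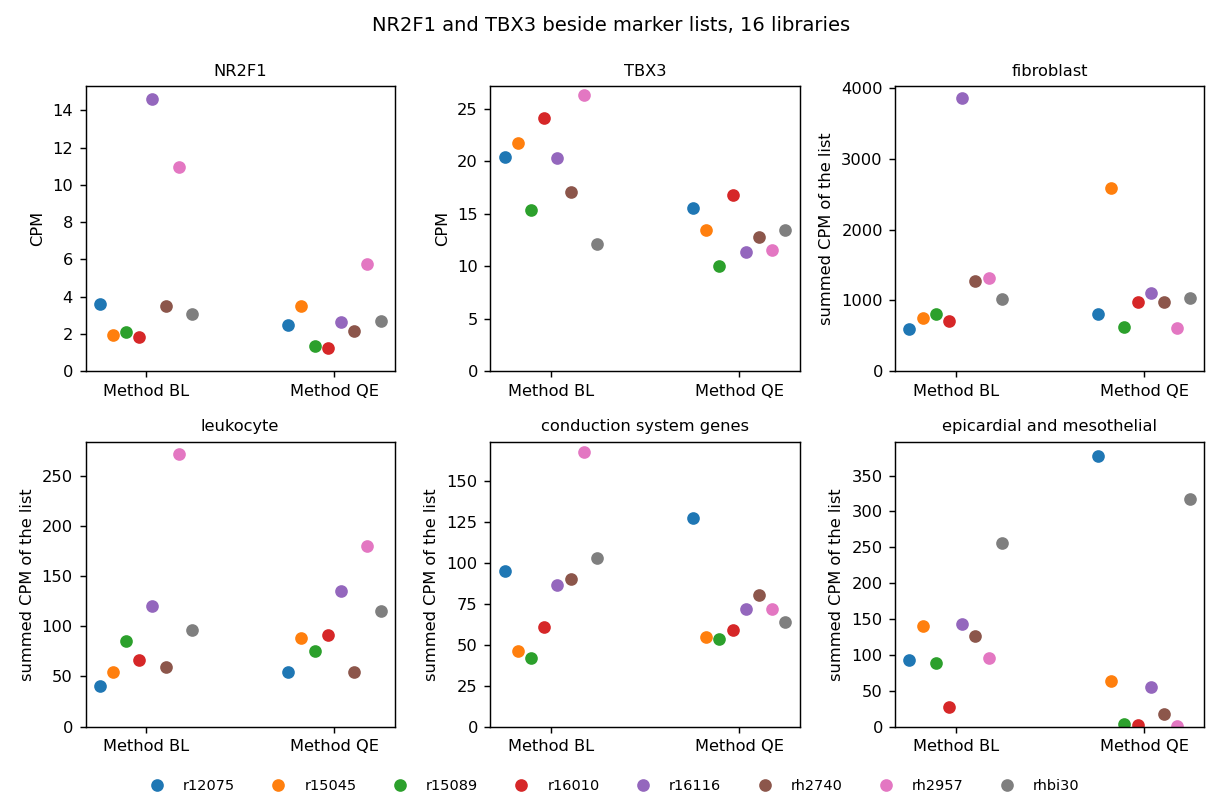
CPM of NR2F1 and TBX3 and summed CPM of 4 marker lists in the 16 libraries, coloured by animal. The Method BL libraries of r16116 (NR2F1 14.6, fibroblast list 3858) and rh2957 (NR2F1 11.0, leukocyte list 272) lie above the rest of their method.

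NR2F2, the factor of atrial muscle and of venous and lymphatic endothelium, varied least. It ranged from 16.01 to 26.8 CPM in Method BL (median 21.6) and from 17.5 to 29.9 CPM in Method QE (median 23.8). It was higher in Method QE in 7 of 8 animals, and only rh2957 went the other way, from 21.2 to 17.5 CPM. The log2 fold change was 0.16 (SE 0.07), which did not pass the threshold in edgeR (adjusted p = 0.282). The coefficient of variation over the 16 libraries was 17.6%, against 92.7% for NR2F1.

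LBH ranged from 56.4 to 164 CPM in Method BL (median 105.0) and from 74.8 to 160 CPM in Method QE (median 119). It was higher in Method QE in 6 of 8 animals. Its log2 fold change was 0.27 (SE 0.10) with an adjusted p of 0.176 in edgeR.

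Among the ventricular regulators, HEY2 was the steadiest between the methods. HEY2 encodes a repressor downstream of Notch that marks the compact ventricular wall. It ranged from 9.72 to 28.8 CPM in Method BL (median 17.4) and from 10.5 to 27.2 CPM in Method QE (median 18.0). The median difference within an animal was 0.12 on the log2 scale, the smallest of the 9 genes. Both methods had the lowest level in r15045 and the highest in r16010. The log2 fold change was 0.08 (SE 0.08) with an adjusted p of 0.654 in edgeR, 4 animals being higher and 4 lower in Method QE.

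IRX4, which promotes ventricular and represses atrial genes, ranged from 2.14 to 8.55 CPM in Method BL (median 5.38) and from 2.44 to 10.7 CPM in Method QE (median 4.86). Both methods had the lowest level in r16116. The log2 fold change was −0.09 (SE 0.16) with an adjusted p of 0.816 in edgeR. IRX3, known in mice for the ventricular conduction system, ranged from 16.8 to 27.5 CPM in Method BL (median 21.4) and from 16.9 to 32.2 CPM in Method QE (median 25.1), with a log2 fold change of 0.13 (SE 0.12, adjusted p = 0.604 in edgeR). IRX5, known in mice for the gradient of repolarization across the ventricular wall, ranged from 2.36 to 9.12 CPM in Method BL (median 5.19) and from 2.53 to 7.23 CPM in Method QE (median 4.60), with a log2 fold change of −0.16 (SE 0.25, adjusted p = 0.770 in edgeR). The groups overlapped for all 3 genes.

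HAND1, a basic helix-loop-helix factor of the left ventricle and outflow region, had few counts, from 20 to 197 per library. It ranged from 0.859 to 4.30 CPM in Method BL (median 2.18) and from 1.37 to 10.2 CPM in Method QE (median 3.31). The largest change of any of the 9 genes in 1 animal was that of HAND1 in rh2740, which had 1.03 CPM in Method BL and 10.2 CPM in Method QE. HAND1 was higher in Method QE in 5 of 8 animals, and its log2 fold change of 0.72 (SE 0.39) did not pass in edgeR (adjusted p = 0.350).

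Between animals, 5 of the 9 genes were called by edgeR: HEY2, LBH, IRX4, NR2F1 and NR2F2. The share called over the whole table was 31.5%, or 4461 of 14165 genes. This test asks whether the 8 animals differ in a model with method as the other term. The labels do not say whether both extractions used the same piece of tissue, and a difference between animals and a difference between pieces of tissue cannot be told apart.

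HEY2 had the smallest adjusted p of the 9 between animals, 0.000597 in edgeR. Averaged over both methods it ran from 10.1 CPM in r15045 to 28.0 CPM in r16010, a ratio of 2.78. Without any animal in turn, edgeR's adjusted p stayed between 0.000409 and 0.00513. LBH, with an adjusted p of 0.00249 in edgeR, ran from 65.6 CPM in r16116 to 154 CPM in rhbi30. IRX4 had an adjusted p of 0.0126 in edgeR and ran from 2.29 CPM in r16116 to 8.20 CPM in rh2957, and without r16116 its adjusted p was 0.0845.

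NR2F1 had an adjusted p of 0.0127 between animals in edgeR, but it was 0.199 without r16116 and rh2957. NR2F2, with an adjusted p of 0.0270 in edgeR, ran only from 17.8 CPM in r16010 to 28.3 CPM in rh2740. Its call was lost without r15089 (adjusted p = 0.0551), r16010 (0.101) or rh2740 (0.0864). The other 4 genes did not pass in edgeR, with adjusted p-values of 0.194 for TBX3, 0.287 for IRX3, 0.448 for HAND1 and 0.637 for IRX5.

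The agreement of the methods was also measured gene by gene over the 8 animals, with exact permutation of all pairings, two-sided, and adjustment over 9 relations. For HEY2, Pearson's r of log2 CPM was 0.894 (exact p = 0.00295, adjusted 0.0266), Spearman's rho was 0.857 (exact p = 0.0107, adjusted 0.0482), and r was 0.668 without r15045 and r16010, the animals farthest from the median in Method BL. For LBH, r was 0.836 (exact p = 0.0102, adjusted 0.0459), rho was 0.810 (exact p = 0.0218, adjusted 0.0628), and r was 0.755 without r16116 and rh2957. With each animal left out, r of HEY2 lay between 0.797 and 0.962, and its adjusted exact p passed 3 of 8 times, without rh2740, rh2957 or rhbi30. That of LBH, with r between 0.752 and 0.887, passed without rh2957 alone.

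NR2F2 depended on 1 animal. Over 8 animals its r was 0.736 (exact p = 0.0371, adjusted 0.111), rho was 0.857 (exact p = 0.0107, adjusted 0.0482), and r was 0.526 without r16010 and rh2740. Without rh2957, r was 0.987 over 7 animals, and the exact p of 0.000198 is the smallest that 7 animals can give (adjusted 0.00179). The other 7 animals then had the same order of NR2F2 in both methods. IRX4 had an r of 0.696 (exact p = 0.0544, adjusted 0.122), a rho of 0.786 (exact p = 0.0279, adjusted 0.0628), and an r of 0.437 without r16116 and rhbi30. Without rh2957 its r was 0.876 (exact p = 0.00635, adjusted 0.0143) and its rho 0.893 (exact p = 0.0123, adjusted 0.0554), which did not pass. With each animal left out, r of NR2F2 lay between 0.627 and 0.987, and that of IRX4 between 0.465 and 0.876. For both genes the adjusted exact p of r passed without rh2957 alone, so these are the most favourable of 8 settings.

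For the other genes r was 0.596 in NR2F1, 0.248 in TBX3, 0.0813 in IRX3, −0.283 in IRX5 and −0.289 in HAND1, with adjusted exact p-values from 0.211 to 0.850 and rho from −0.429 to 0.429. For TBX3 the order of animals by Method BL was thus not shown to be kept by Method QE.

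**Figure D5:**
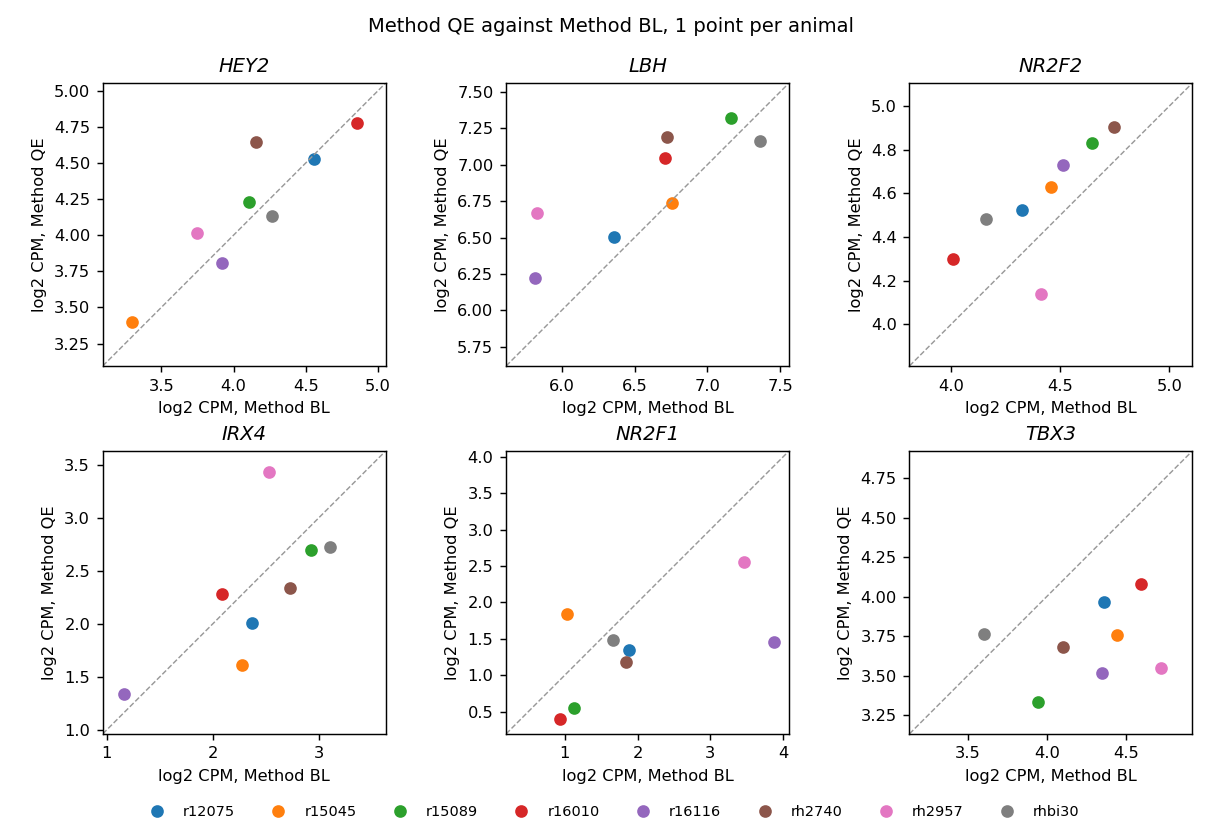
Log2 CPM of 6 genes by Method QE against Method BL, 1 point per animal, with a dashed line where both are equal. The order of animals is largely kept for HEY2 (r = 0.894) and LBH (r = 0.836). LBH lies above the line in 6 of 8 animals and NR2F2 in 7 of 8, all but rh2957. TBX3 lies below it in 7 of 8 animals.

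Of 36 pairs of the 9 genes, compared over the animal means of both methods, none passed after adjustment and 2 had an unadjusted exact p below 0.05. IRX3 and IRX5 had an r of 0.740 (exact p = 0.0382, adjusted 0.688), a rho of 0.738 (exact p = 0.0458, adjusted 0.962), and an r of 0.779 without r16010 and rh2740. They lie 646 kb apart on chromosome 20 and share the long run given above. NR2F1 and LBH had an r of −0.779 (exact p = 0.0223, adjusted 0.688) and a rho of −0.619 (exact p = 0.115, adjusted 0.962), and r was −0.310 without r16116 and rh2957, so that the relation rested on these animals. Of 36 relations with MYL7, MYL2, CDH5 (endothelium) and DCN (fibroblasts), none passed after adjustment and 1 had an unadjusted exact p below 0.05. This was HAND1 and MYL2 (r = 0.764, exact p = 0.0279, adjusted 0.718, rho = 0.762 with exact p = 0.0368, adjusted 0.693), and r was 0.273 without r12075 and rh2957.

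Genes with the most similar pattern to each of the 9 were sought over the 16 libraries after the mean of each method was removed, which is a description with no test. HEY2 was most like PAIP2B (r = 0.937), MPZL2 (0.901) and GNG7 (0.898). NR2F1 was most like MYOF (0.904), GAS1 (0.895) and TTYH3 (0.889), and NR2F2 most like ITPKB (0.902), GNB4 (0.897) and NDRG1 (0.881). LBH was most like THRB (0.904), SAP30L (0.849) and CGRRF1 (0.842), and TBX3 most like ACO1 (0.826), ELAC2 (0.747) and AACS (0.705). IRX3 was most like CSTF2T (0.903), LRP3 (0.837) and AAMP (0.816). IRX4 was most like REPS1 (0.855), MED29 (0.831) and SLC25A38 (0.816), and IRX5 most like LRP3 (0.804), IRX3 (0.794) and C3H7orf50 (0.781). HAND1 had the least similar partners, KDM2B (0.715), H2AZ2 (0.707) and AMT (0.698). Each r is the highest of about as many as the 7658 genes compared, and libraries of 1 animal share its tissue.

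The related genes that the 9 act beside were read from 6 lists with 43 genes tested. None was called between the methods by edgeR, 6 had an unadjusted p below 0.05 (18.0% of all genes did), limma-voom called 0, and DESeq2 called 3 (MYL2, MYL3 and MYH7 of the ventricular list). Of 9 tested genes in the same families, 2 were called between animals, against 31.5% of all genes tested. Their median log2 fold change between methods was −0.05. TBX2, a T-box repressor close to TBX3, had a median of 5.11 CPM in Method BL and 3.66 CPM in Method QE (log2 fold change −0.31, SE 0.13, adjusted p = 0.244 in edgeR). TBX18, known from the epicardium and sinus node, had a log2 fold change of −0.33 (SE 0.19, adjusted p = 0.393 in edgeR). IRX2 had one of −0.52 (SE 0.32, adjusted p = 0.430 in edgeR). HAND2 and TBX20, the most abundant of this list, had medians of 76.3 and 67.1 CPM in Method BL and of 78.0 and 56.2 CPM in Method QE.

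Of 12 other cardiac transcription factors, 8 were called between animals by edgeR, against 31.5% of all genes tested. Their median log2 fold change between methods was 0.02. The smallest adjusted p between the methods was that of ETV1, a factor of fast conduction (log2 fold change 0.20, SE 0.08, adjusted p = 0.194 in edgeR), followed by MEF2C (0.14, SE 0.06, adjusted p = 0.224). The most abundant were MEF2A and MYOCD, with medians of 320 and 104 CPM in Method BL and 331 and 109 CPM in Method QE.

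Genes that mark the chambers were read beside their regulators. The summed level of 6 measured atrial genes was lower in Method QE in 8 of 8 animals, with a median of 59.5 against 74.6 CPM, and their median log2 fold change was −0.51. No test was run on the sum. The lowest adjusted p was that of MYBPHL (log2 fold change −1.02, SE 0.45, adjusted p = 0.253 in edgeR), and NPPA, the atrial peptide, had a log2 fold change of −1.33 (SE 0.68, adjusted p = 0.330 in edgeR). The 5 ventricular genes had a median log2 fold change of 0.33 and a summed level that was higher in Method QE in 7 of 8 animals. MYL3 had a log2 fold change of 0.45 (SE 0.15, adjusted p = 0.127 in edgeR) and MYL2 one of 0.36 (SE 0.13, adjusted p = 0.183 in edgeR). Between animals, edgeR called 5 of 6 atrial and 4 of 5 ventricular genes, against 31.5% of all genes tested.

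Of 7 conduction genes, 5 were called between animals by edgeR, against 31.5% of all genes tested. Their median log2 fold change between methods was −0.20. HCN4 had a log2 fold change of −0.54 (SE 0.53, adjusted p = 0.629 in edgeR), and GJA5, the connexin of fast conduction, one of 0.000927 (SE 0.16, adjusted p = 0.998). Of the channel genes graded by IRX factors in mice, 4 were tested and 3 called between animals, beside that share of 31.5%. Their median log2 fold change between methods was 0.02. KCNIP2, whose product sets the transient outward current together with KCND3, ranged from 29.7 to 193 CPM over the 16 libraries.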

How the data were processed

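Total RNA was sequenced by the study from FFPE heart tissue of 8 macaques, 1 library per animal and method, with rRNA depletion and a stranded kit. According to the submitters' processing notes, reads were aligned with STAR 2.7.8a to Mmul_10 and quantified in Partek, by its E/M algorithm with Ensembl annotation as the methods state. The table the authors deposited holds estimated counts per gene, not normalized, and 76.7% of values are whole within 1e-06. The lowest summed count of a gene is 10.0, and 1 entry broken over 3 lines was joined. No batch is named apart from the library name endings. The animal named in each library paired them, since replicate numbers follow another order in each method. The pairing was checked on deviations from the method means: r was 0.345 to 0.637 within animals and at most 0.231 between them, and 16 of 16 libraries were most like the other library of their animal. For every sample the protocol label gives the Method QE kit, which conflicts with the other labels of Method BL, and groups follow the title, description and method labels.

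Counts were rounded and fitted with edgeR 4.0.16 in R 4.3.3 (filterByExpr, TMM, quasi-likelihood F test, terms animal and method, adjustment over 14165 genes). CPM values are TMM-scaled, and 2 is the prior count in log2 CPM. DESeq2 1.42.0 and limma 3.58.1 served as alternatives, and correlations used numpy 2.4.6. Both kinds of test were tested on simulated data. No extraction was repeated within an animal and method. P-values of edgeR therefore set a difference against how the difference between methods varied from animal to animal. Pieces of tissue and library preparation cannot be told apart from this variation. Exact p-values come from permuting the animals. The members and lists were chosen with earlier results of these data known. All 9 members are described. Of each other list the up to 4 genes with the smallest adjusted p between methods and the 2 with the highest mean CPM could be named, and for each member the 3 genes most alike with a mean log2 CPM of at least 3. ISL1, SLN, BMP10, MYH6, PCP4 and TNNI3 of the lists were not analysed here, and some other items are not reported here. Transcript lengths are from RefSeq of Mmul_10.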

Additional observations from a re-analysis of the deposited data

Results flagged for a closer look

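No member had a library flagged as far from the others of its method by Dixon's test (8 libraries per group). The test uses the gap to the next library, so 2 high libraries can hide each other. This holds for NR2F1 in Method BL, with 14.6 and 11.0 CPM against at most 3.60 in the others. Among the summed marker lists, 8 of the 52 groups checked, members included, had a highest library that stood apart, where chance flags about 1 in 20. In Method BL these were rh2957 in the lymphatic list (238 CPM, the next library 133), the adipocyte list (117 CPM, the next 22.0) and the leukocyte list (272 CPM, the next 120), r16116 in the fibroblast list (3858 CPM, the next 1323) and rh2740 in the Schwann cell and neuron list (36.6 CPM, the next 19.2). In Method QE they were r12075 in the conduction list (128 CPM, the next 80.6), r15045 in the fibroblast list (2591 CPM, the next 1107) and rh2740 in the Schwann cell and neuron list (43.7 CPM, the next 22.8). The test thus flagged rh2740 in the same list by both methods, and the others by 1 method. Below the cutoff, rh2957 was also the highest Method QE library in the lymphatic list (178 CPM) and the leukocyte list (180 CPM). The lymphatic genes did not move alike: in the Method BL library of rh2957, LYVE1 gave 156 CPM of the sum, while PROX1 was the lowest of its method at 29.9 CPM.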

How the results depend on the processing

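Counts of genes called between methods depended on the fit: 303 as reported, 5 with no replicate block, 592 in DESeq2, 114 for genes with a RefSeq transcript, 28 in a fit of the same genes tested with an offset for GC content and length, and 37 to 355 with each animal left out. In the subset of animals with a B ending of the library name the count was 49, and with an R ending it was 0 in edgeR, with 870 genes at an unadjusted p below 0.05 and no other tool run. Without r16116 and rh2957, a setting chosen after seeing the data, it was 69. Of the 9 members, 1 was called as reported and 0 in the unpaired fit, with the offset, in the B and R subsets and without those animals, and 0 to 1 with each animal left out. TBX3 kept its direction in all of these, with a log2 fold change from −0.83 to −0.41, and its call in DESeq2, limma-voom and under other scalings and filters. With the offset, TBX3 had a log2 fold change of −0.53 and an adjusted p of 0.0825 in edgeR. Between animals, 751 genes and 0 members were called in the R subset, 2645 genes and 4 members without r16116 and rh2957, and 4 to 5 members with each animal left out. The members whose methods agreed over animals numbered 2 as reported and 0 to 4 with each animal left out. The sign turned for IRX4 (0.0124 with the offset, 0.0284 in the R subset), IRX5 (0.227 in the R subset) and IRX3 (−0.041 without r16116 and rh2957), none of them called. With each animal left out, r between methods ran from −0.252 to 0.398 for IRX3 and from −0.636 to 0.0592 for HAND1. No relation among members or with the 4 anchor genes was called in any setting. The causes were not tested. HAND1, NR2F1, IRX4 and IRX5 had the fewest counts of the members, 20 to 284 per library.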

Other observations

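The cell type lists hold 50 tested genes, of which edgeR called 0 between methods, 14 had an unadjusted p below 0.05 (18.0% of all genes tested did), limma-voom called 0 and DESeq2 called 4 (PECAM1, PLVAP, MYH11 and MSLN). PLVAP, of fenestrated and endocardial endothelium, had a log2 fold change of 0.63 (SE 0.20, adjusted p = 0.124 in edgeR) and PECAM1, of all endothelium, one of 0.36 (SE 0.11, adjusted p = 0.112). MYH11, of smooth muscle, had a log2 fold change of 0.55 (SE 0.16, adjusted p = 0.099 in edgeR). The endothelial list had a median summed level of 593 CPM in Method BL and 670 CPM in Method QE, the venous and endocardial list 52.6 and 62.5, and the arterial list 48.1 and 56.3. For the lymphatic list they were 126 and 136 CPM, for smooth muscle and pericytes 474 and 482, and for fibroblasts 915 and 978. Leukocytes had 76.2 and 90.0 CPM, adipocytes 8.74 and 8.50, and Schwann cells and neurons 15.6 and 15.3. Cardiomyocytes had 110568 and 93441 CPM, a sum made up mostly of TTN, with medians of 103982 and 87871 CPM. Of the 4 genes tested in the cardiomyocyte list, 3 had a log2 fold change above 0, and the median was 0.14.

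The members differ in the base composition of their transcripts. IRX3 (63.8% GC) and IRX4 (64.1%) lie among the genes richest in GC of those with a RefSeq transcript, at percentiles 93.6 and 94.3, while NR2F2 (41.5%) lies at 18.9 and HEY2 (43.6%) at 27.9. TBX3 (52.8%) lies near the middle, at 60.0.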
